A study of Mus musculus with 6 samples.

Results

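The 100 genes described here were those with an RPKM (reads scaled by gene length and library size) under 1 in mouse embryonic fibroblasts (MEF) that stood furthest above embryonic stem cells (ESC) in every induced pluripotent stem cell (iPSC) line. They were taken from 19330 genes, of which 7330 were under the fibroblast limit. Genes were ranked by the lowest RPKM of the 4 iPSC lines plus 0.5, divided by the ESC RPKM plus 0.5, and the first 100 were kept. RNA was sequenced from 6 mouse libraries: 2 iPSC lines labelled as palmitoylcarnitine induced (PC iPSC 5 and 13), 2 lines of control iPSC (3 and 7), and a single library each of ESC and MEF. The ESC library is titled B6, with the source name B6/blu, and no strain is labelled for the iPSC or the MEF. The pluripotent cells (iPSC and ESC) grew on mitomycin C-treated MEF feeders with leukemia inhibitory factor, and the fibroblasts in serum medium, per the labels' protocols. Palmitoylcarnitine is the acylcarnitine form of palmitate, with its dose, its timing and the reprogramming factors not given in the sources used here. Libraries held 26.51 M to 27.99 M assigned reads.

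Mouse pluripotent cultures are known to hold a small, shifting fraction of cells that switch on genes of the 2-cell embryo, the stage at which the mouse embryonic genome is first transcribed. The transcription factor Dux switches on much of that programme, including the Zscan4 genes, which act at telomeres, and multicopy families such as Tcstv, Tdpoz, Usp17l and the PRAME-like genes. Genes of meiosis and germ cells, by contrast, often have CpG-rich promoters that are methylated in somatic cells. In bulk RNA, more cells of a kind and more RNA per cell cannot be told apart.

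The ratio that ranked the genes ran from 2.40 to 25.6, with a median of 3.27. The genes were chosen by these RPKM values of iPSC, ESC and MEF, which are therefore given without a test. The last genes inside were 4930550L24Rik, Dyrk4 and Fank1, each at 2.40, and the first outside were Stk33 at 2.39, Gm6902 at 2.38 and Slfn3 at 2.37. The median level of the 100 genes was 4.10 RPKM in PC iPSC 5, 6.10 in PC iPSC 13, 3.12 in control iPSC 3 and 6.10 in control iPSC 7, against 0.442 in ESC and 0 in MEF. No read was found in MEF for 72 genes, and none in ESC for 4 genes, which were Tdpoz4, Wfdc15a, Trim43b and 4930550L24Rik.

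A description of these genes as on in iPSC only held for part of them. The ESC level was under 1 RPKM for 78 genes and at least 1 for 22. For 6 genes it was at least 5 RPKM. Rhox5, an X-linked reproductive homeobox gene, was the most abundant of all, at 410 RPKM in PC iPSC 5, 387 in PC iPSC 13, 423 in control iPSC 3 and 389 in control iPSC 7, against 151 in ESC. Calcoco2, known in human cells as an autophagy receptor, stood at 117, 146, 96.8 and 118 RPKM in the same order, against 38.6 in ESC. Both were thus expressed in ESC as well, at a lower level. Ptpn22, a phosphatase of lymphocytes, and Pik3r6, a regulatory subunit of an immune cell PI3 kinase, had been named as markers of the pattern and were not among the 100. Ptpn22 ranked 146th, at 0.521 and 0.731 RPKM in PC iPSC 5 and 13 and 0.850 and 0.722 in control iPSC 3 and 7, with no read in ESC. Pik3r6 was left out by its level of 2.05 RPKM in MEF. It stood at 0.482 and 0.471 RPKM in PC iPSC and 0.371 and 0.461 in control iPSC, with no read in ESC.

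**Figure D1:**
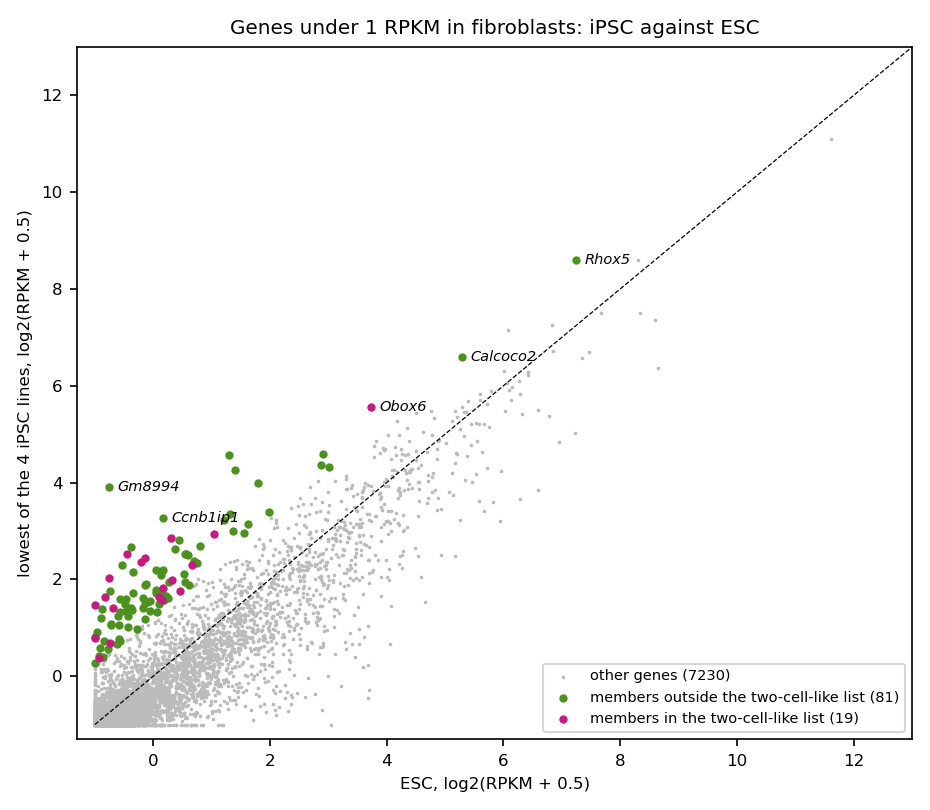
Each point is 1 of the 7330 genes under 1 RPKM in fibroblasts, with its ESC level on the x axis and the lowest of its 4 iPSC levels on the y axis, both as log2(RPKM + 0.5), and the dashed line marks equal levels. The 19 genes of a two-cell-like list (pink) and the other 81 chosen genes (green) lie above the line by construction, and Rhox5 and Calcoco2 sit far to the right, at 151 and 38.6 RPKM in ESC.

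Of the 9 gene lists compared, which were chosen with earlier results of these data known, the two-cell-like list held the most of the 100 genes. The fibroblast and macrophage lists had 0 genes under the fibroblast limit and so could hold none of the 100. The remaining lists had 6 to 26 genes under it. The two-cell-like list had 37 genes in the table and 36 of the 7330 under the limit (0.491%), and 19 were among the 100. They ranked from Pramel7, Zfp352, Tcstv1, Pramef25, Tcstv3, Tdpoz4 and Tdpoz3 down to Zscan4a and Ubtfl1. Zfp352, a zinc finger gene transcribed in the 2-cell embryo, stood at 3.61 RPKM in PC iPSC 5, 10.1 in PC iPSC 13, 4.74 in control iPSC 3 and 10.8 in control iPSC 7, against 0.0950 in ESC. Tcstv1, named for the 2-cell stage, stood at 4.94, 11.9, 5.42 and 11.2 RPKM in that order, against 0.409 in ESC. PC iPSC 13 and control iPSC 7 were the higher pair for both genes, so each pair joins a PC line and a control line. Zscan4c, a telomere-acting SCAN zinc finger gene, stood at 7.62, 10.7, 4.42 and 10.97 RPKM, against 1.09 in ESC. Tdpoz4, of the TD and POZ domain family, stood at 2.27, 6.68, 3.25 and 7.15 RPKM with no read in ESC, so that the iPSC mean was at least 50.2-fold higher against a floor of 3 ESC reads. Obox6, an oocyte homeobox gene, was the most abundant of the 19, at 46.6, 71.3, 51.4 and 63.0 RPKM, against 12.8 in ESC. The summed level of the 19 genes was 145 RPKM in PC iPSC 5, 217 in PC iPSC 13, 116 in control iPSC 3 and 203 in control iPSC 7, against 21.0 in ESC.

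Of the other 18 genes of the two-cell-like list in the table, all but Pramef6 and Obox5 had a higher RPKM in every iPSC line than in ESC. Dux itself ranked 149th, at 1.19 and 3.40 RPKM in PC iPSC 5 and 13 and 1.52 and 2.37 in control iPSC 3 and 7, against 0.336 in ESC. Zscan4b stood at 6.66 and 12.01 RPKM in PC iPSC and 4.15 and 11.3 in control iPSC, against 1.71 in ESC. Across all genes, edgeR's quasi-likelihood test called 10.4% of 16435 genes between iPSC and ESC, 4.71% higher and 5.71% lower. That is 1713 genes, and 2873 or 2734 were called without control iPSC 3 or without control iPSC 7. Of the 34 genes of the list that were tested, 20 were higher, 0 were lower and all 34 had a positive log2 difference, with a median of 3.55 against 0.03 over all genes. The contrast that chose the genes is the same one, so these counts describe the list and support nothing further. Of its 15 tested genes outside the 100, 2 were higher in iPSC: Sp110, a nuclear body protein (log2 difference 4.11, SE 0.77, edgeR adjusted p = 0.0267), and Obox3 (adjusted p = 0.0488), which had no read in ESC. Dux missed the threshold (log2 difference 2.61, SE 0.78, edgeR adjusted p = 0.080) and passed it in DESeq2 (adjusted p = 0.0148). The test rests on 1 ESC library, which is assumed to vary like the iPSC lines, and strain, line and culture cannot be told apart from the difference between iPSC and ESC.

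**Figure D2:**
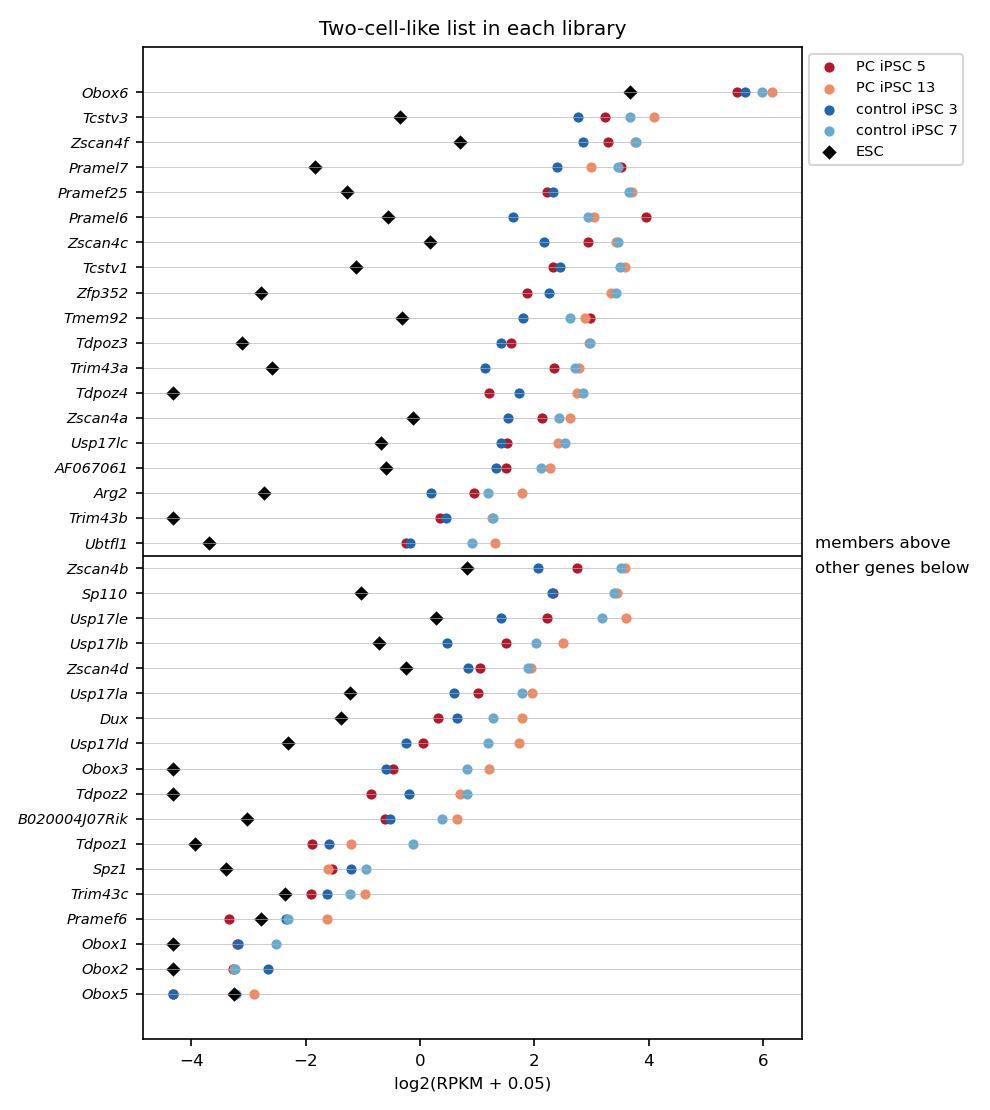
Levels as log2(RPKM + 0.05) of the 37 two-cell-like genes in the table, with the 19 chosen genes above the line and the other 18 below it, each sorted by mean iPSC level. Circles are the 4 iPSC lines and diamonds are ESC, and for Zfp352, Tcstv1 and Tdpoz4 the circles of PC iPSC 13 and control iPSC 7 lie to the right of those of PC iPSC 5 and control iPSC 3.

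The promoter windows found for two-cell-like genes held fewer CpG dinucleotides than those of the 3 germline genes among the 100. RefSeq promoters on GRCm38.p6, running from 250 bases before to 50 bases after each gene's start, were found for 72 of the 100 genes, 11 of them on the two-cell-like list. The 11 held 0 to 4 CpG dinucleotides, with a median of 1. The other 61 had a median of 6 and ranged from 0 to 41, and all 27025 RefSeq promoters had a median of 7. Tdpoz4 held 0, whereas the germ cell gene Dazl held 28 and the synaptonemal complex gene Sycp1 held 21. Hormad2, the remaining germline gene of the 100, held 16. The capitals below mark each CpG in the strand of the gene.
Tdpoz4 (chr3:93796148-93796447, plus strand): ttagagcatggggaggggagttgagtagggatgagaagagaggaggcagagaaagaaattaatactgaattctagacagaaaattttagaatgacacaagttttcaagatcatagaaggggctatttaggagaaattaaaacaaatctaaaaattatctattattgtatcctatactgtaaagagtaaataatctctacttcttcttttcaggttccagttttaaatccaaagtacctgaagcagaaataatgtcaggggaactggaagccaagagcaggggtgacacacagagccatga
Dazl (chr17:50293571-50293870, minus strand): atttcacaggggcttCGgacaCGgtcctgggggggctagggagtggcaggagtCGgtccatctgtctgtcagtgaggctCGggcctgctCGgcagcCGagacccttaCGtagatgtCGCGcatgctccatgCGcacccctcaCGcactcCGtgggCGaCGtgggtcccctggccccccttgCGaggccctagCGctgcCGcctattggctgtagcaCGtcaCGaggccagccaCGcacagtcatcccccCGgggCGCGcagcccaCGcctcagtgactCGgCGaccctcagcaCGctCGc
Sycp1 (chr3:102936051-102936350, minus strand): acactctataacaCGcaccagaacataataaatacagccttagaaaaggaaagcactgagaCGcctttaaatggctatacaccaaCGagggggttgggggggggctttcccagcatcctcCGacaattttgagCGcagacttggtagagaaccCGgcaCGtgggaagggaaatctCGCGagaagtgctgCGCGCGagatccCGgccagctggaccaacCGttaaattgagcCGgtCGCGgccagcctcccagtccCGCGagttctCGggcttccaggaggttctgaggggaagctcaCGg
The 3 sequences set a two-cell-like window with no CpG, at 36.7% G and C, beside 2 germline promoters. CpG are spread through those 2, at 68.7% G and C in Dazl and 56.7% in Sycp1. The 50 bases of Tdpoz4 from its annotated start begin with ATG, so that start may be a start codon. Whether the Tdpoz4 window holds its promoter was not tested. The most CpG of the 72 promoters, 41, was in that of Fank1.

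**Figure D3:**
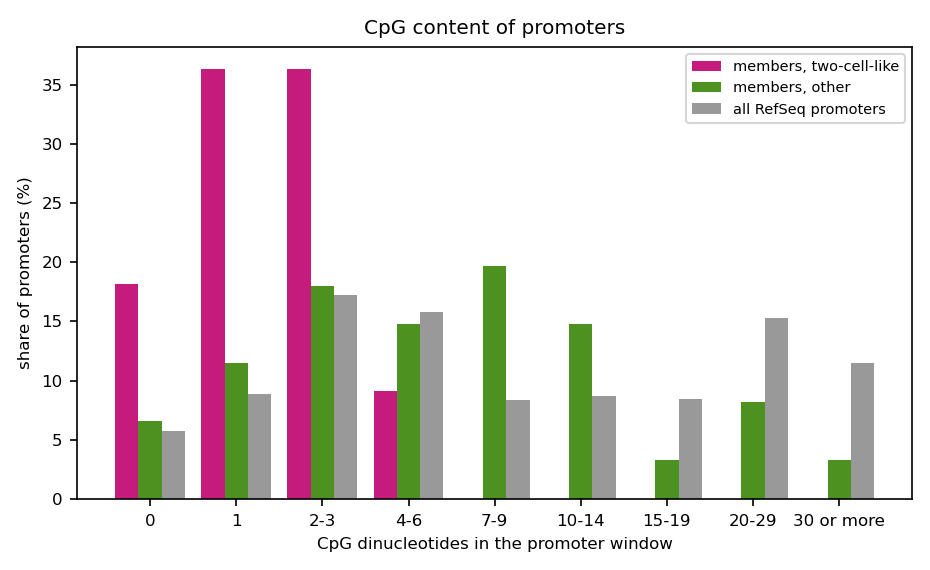
Share of promoters (y axis, percent) by number of CpG dinucleotides in the 300 bases (x axis, in bins of unequal width) for the 11 two-cell-like genes, the other 61 chosen genes and all 27025 RefSeq promoters. The 11 two-cell-like promoters all fall in the bins from 0 to 6 CpG.

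A short sequence related to the binding site of Dux was more frequent in these promoters than in promoters at large. The full Dux site, TGATTNAAT followed by CA and searched on both strands, was found in 0 of the 72 promoters and in 0.0407% of all 27025. Its first 9 letters, TGATTNAAT, were searched after the Zscan4c promoter had been seen, so the count is a description without a test. They were found in 8 of the 72 promoters (11.1%), against 0.708% of 5510 promoters of genes under the fibroblast limit and 0.740% of all promoters. The 8 genes were Zscan4c, Zscan4f, Pramel6, AF067061, BC080695, Gm13119, BB287469 and Gm21319. They are not independent, since Zscan4c and Zscan4f promoters were 99.3% identical over 277 aligned bases and others belong to gene families. The capitals below mark the 9 letters, or their reverse complement where the match is on the strand opposite to the gene.
Zscan4c (chr7:11005495-11005794, plus strand): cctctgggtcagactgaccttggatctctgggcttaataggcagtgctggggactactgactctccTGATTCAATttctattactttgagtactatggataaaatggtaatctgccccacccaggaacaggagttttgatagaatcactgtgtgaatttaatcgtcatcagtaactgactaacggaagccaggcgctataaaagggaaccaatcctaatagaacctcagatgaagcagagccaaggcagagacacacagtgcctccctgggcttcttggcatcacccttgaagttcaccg
Pramel6 (chr2:87506315-87506614, plus strand): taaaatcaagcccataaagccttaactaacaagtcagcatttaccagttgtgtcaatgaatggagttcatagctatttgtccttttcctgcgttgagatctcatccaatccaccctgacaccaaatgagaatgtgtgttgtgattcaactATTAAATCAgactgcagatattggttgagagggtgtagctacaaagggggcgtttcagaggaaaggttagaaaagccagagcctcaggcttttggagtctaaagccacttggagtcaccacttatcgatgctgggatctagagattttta
AF067061 (chr13:120262845-120263144, plus strand): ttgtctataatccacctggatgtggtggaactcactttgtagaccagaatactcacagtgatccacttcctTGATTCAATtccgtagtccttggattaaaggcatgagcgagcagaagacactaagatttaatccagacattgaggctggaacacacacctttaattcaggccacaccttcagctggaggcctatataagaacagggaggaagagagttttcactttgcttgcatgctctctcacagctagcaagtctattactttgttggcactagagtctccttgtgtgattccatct
BC080695 (chr4:143567217-143567516, plus strand): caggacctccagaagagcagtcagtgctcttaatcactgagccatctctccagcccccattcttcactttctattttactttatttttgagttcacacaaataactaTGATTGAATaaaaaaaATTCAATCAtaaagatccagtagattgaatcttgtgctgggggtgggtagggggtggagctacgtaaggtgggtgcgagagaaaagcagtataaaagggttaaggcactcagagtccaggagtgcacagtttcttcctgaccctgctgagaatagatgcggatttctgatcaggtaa
BB287469 (chr12:87816327-87816626, plus strand): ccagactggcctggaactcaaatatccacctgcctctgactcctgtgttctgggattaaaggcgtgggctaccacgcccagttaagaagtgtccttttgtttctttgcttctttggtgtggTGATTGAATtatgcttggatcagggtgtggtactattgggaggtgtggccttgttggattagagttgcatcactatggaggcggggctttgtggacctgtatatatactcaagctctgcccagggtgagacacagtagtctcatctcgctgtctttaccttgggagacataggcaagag
The match begins 184 bases before the start of Zscan4c, 100 before Pramel6, 179 before AF067061 and 129 before BB287469. BC080695 has 2 matches in opposite orientation, 143 and 127 bases before its start. Other motifs were found at shares closer to those of all promoters. The Zscan4 motif TGCACAC was in 5.56% of the 72 against 4.19% of all, the E-box CACGTG in 5.56% against 7.24%, TATAAA in 19.4% against 14.2% and CCAAT in 36.1% against 37.9%. The octamer ATTTGCAT and the E2F motif GCGGGAA were in 0 of the 72, against 1.75% and 4.66% of all. TGATTNAAT lies within the full Dux site, and none of the other motifs contains another.

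Genes of meiosis and germ cells were also among the 100. The germline list had 26 of the 7330 genes under the fibroblast limit (0.355%) and 3 of the 100, Dazl, Sycp1 and Hormad2. Dazl, an RNA-binding protein needed for germ cell development, stood at 75.2 RPKM in PC iPSC 5, 29.8 in PC iPSC 13, 23.7 in control iPSC 3 and 38.9 in control iPSC 7, against 7.02 in ESC. Sycp1, the transverse filament of the synaptonemal complex, stood at 10.7, 8.36, 5.95 and 7.96 RPKM, against 1.24 in ESC. Hormad2, a protein of the meiotic chromosome axis, stood at 9.11, 8.34, 9.01 and 8.62 RPKM, against 2.59 in ESC. Dazl varied most between lines and was highest in PC iPSC 5, whereas the 4 values of Hormad2 lay close together. Ccnb1ip1 and Gtsf1 are outside the germline list. Ccnb1ip1, a ligase needed for meiotic crossovers, ranked 3rd of the 100, at 9.38, 10.2, 9.10 and 10.8 RPKM against 0.617 in ESC. Gtsf1, which acts with piRNAs against retrotransposons in germ cells, stood at 4.10, 7.02, 5.29 and 6.83 RPKM against 0.532 in ESC.

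Most germline genes did not share the pattern. Of 27 in the table, 3 were among the 100. Those 3 had been chosen by this same contrast, so their own calls are not a test. Of the other 23 tested between iPSC and ESC, where edgeR called 4.71% of all genes higher and 5.71% lower, 1 was higher, Piwil2 (log2 difference 0.66, SE 0.16, adjusted p = 0.0491), and 1 was lower, the meiotic recombinase Dmc1 (log2 difference -0.85, SE 0.19, adjusted p = 0.0394). Of all 26 tested, the 3 included, 17 had a positive log2 difference, against 8565 of 16435 over all genes. The median of the 26 was 0.45 against 0.03 over all genes. The retinoic acid target Stra8, at 21.6 and 21.3 RPKM in PC iPSC and 19.11 and 18.7 in control iPSC, against 19.4 in ESC, had a log2 difference of 0.02 (SE 0.16). Among the 84 of the 100 genes with deposited gene ontology terms, 5 (5.95%) carried the term spermatid development, against 0.764% of 6285 annotated genes under the fibroblast limit, and 3 (3.57%) carried synaptonemal complex, against 0.286%. Membrane was carried by 13.1%, against 32.7%.

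Enzymes and transporters were also among the 100, with highest-to-lowest line ratios from 1.45 for Bhmt to 4.22 for Cyp2b23 among those named here. Dmgdh, the mitochondrial dimethylglycine dehydrogenase, stood at 4.41 RPKM in PC iPSC 5, 6.14 in PC iPSC 13, 6.64 in control iPSC 3 and 5.02 in control iPSC 7, against 0.192 in ESC. Its neighbour Bhmt, which methylates homocysteine with betaine, stood at 5.46, 4.85, 5.22 and 3.77 RPKM, against 0.602 in ESC. Bhmt2, a related methyltransferase, stood at 2.75, 1.53, 2.01 and 1.81 RPKM, against 0.240 in ESC. Bhmt and Dmgdh catalyse successive steps, since the dimethylglycine made by Bhmt is the substrate of Dmgdh. The 3 genes lie on chromosome 13 between 93616891 and 93752823, a span that holds 4 genes of the table. Slc1a1, a glutamate transporter of neurons and epithelia, stood at 10.6, 8.53, 5.66 and 9.25 RPKM, against 0.792 in ESC. Cyp2b23, a cytochrome P450, was more uneven, at 3.19, 13.5, 6.04 and 6.92 RPKM, against 0.410 in ESC.

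Among the more abundant genes, Cdx1, a caudal type homeobox gene of the posterior embryo and the intestine, stood at 15.4 RPKM in PC iPSC 5, 32.6 in PC iPSC 13, 29.5 in control iPSC 3 and 33.4 in control iPSC 7, against 2.97 in ESC. PC iPSC 5 was the lowest of the iPSC lines and the other 3 lay close together. Mep1b, a metalloprotease of intestine and kidney, stood at 20.03, 32.8, 28.8 and 26.1 RPKM, against 6.84 in ESC. Htr5a, a serotonin receptor, stood at 0.828, 2.91, 3.44 and 4.13 RPKM, against 0.0257 in ESC. The highest rank was held by Gm8994, known only by a predicted name, at 17.5, 28.8, 14.6 and 26.5 RPKM, against 0.0910 in ESC.

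**Figure D4:**
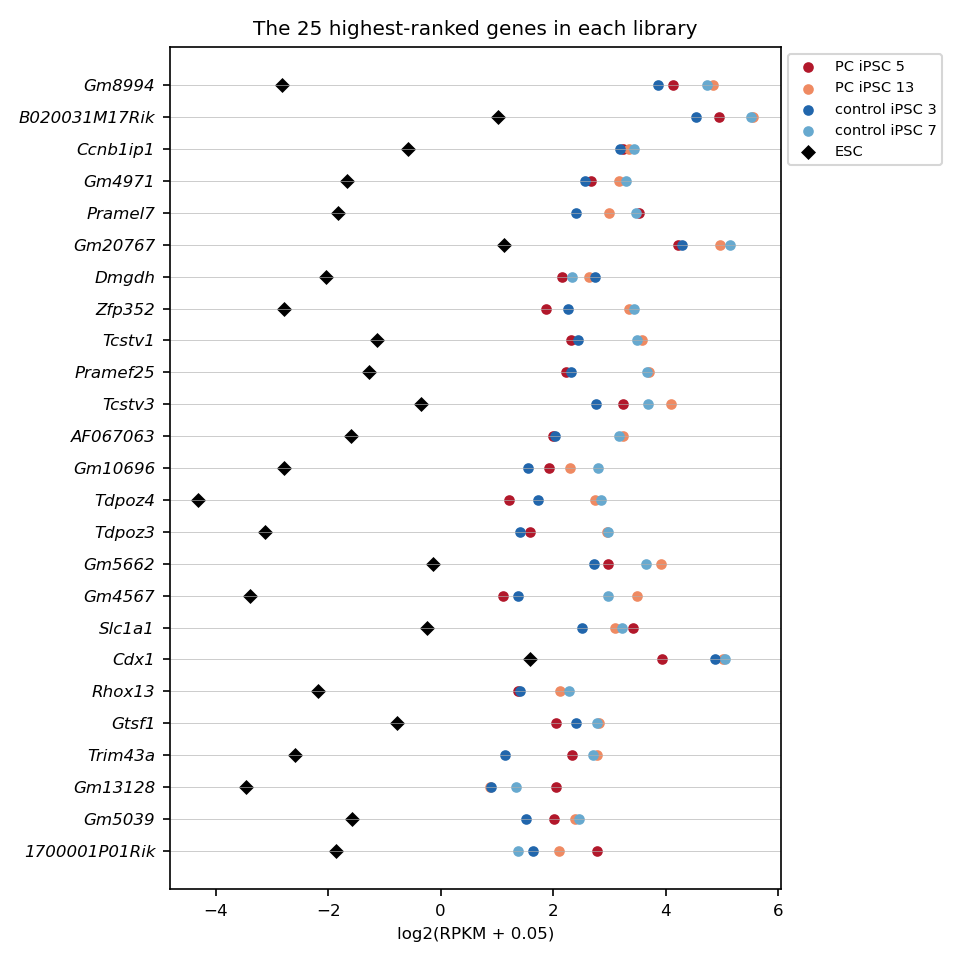
Levels as log2(RPKM + 0.05) of the 25 genes with the highest rank, from Gm8994 at the top, in the 4 iPSC lines (circles) and ESC (diamonds). For each gene all 4 circles lie right of the diamond, as the rule requires, and Dmgdh and Ccnb1ip1 have narrower spreads between lines than Gm4567.

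Part of the 100 genes lay near one another along the genome. Within 500 kb of another of them lay 45 genes, in 13 clusters on GRCm38. The same share among all genes under the fibroblast limit was not computed. Each span runs between its outermost chosen genes, so its density is partly set by the choice. Hoxc12 and Gtsf1 on chromosome 15 were only 2 of the 18 table genes in their span. On chromosome 13, 7 of the 8 table genes between 119827961 and 120318261 were chosen, AF067063, Tcstv1, B020031M17Rik, Gm20767, AF067061, BC147527 and Tcstv3. On chromosome 12, 8 of the 11 genes between 87514316 and 88321762 were chosen, all known by predicted or sequence names, among them BB287469, Gm21319 and Gm5039, a pseudogene of a translation initiation factor by its deposited description. Chromosome 4 held 5 of 12 genes between 143567467 and 144364419, including Pramef25, and chromosome 7 held Zscan4a, Zscan4c and Zscan4f between 10794241 and 11402318. Chromosome X held 13 of the 100, where 4.91% of genes under the fibroblast limit lie. Its genes included Rhox5 and Rhox13 (37754608 to 38129966) and Xlr4b, Xlr4c and Xlr3c (73214321 to 73265576). The Xlr genes, lymphocyte-regulated genes of the X chromosome, summed to 14.6 RPKM in PC iPSC 5 and 6.89 in PC iPSC 13, and to 5.79 in control iPSC 3 and 8.14 in control iPSC 7, against 1.24 in ESC.

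Some of these genes have near-identical copies, and the separate levels of those copies are uncertain. The headers of the count columns name unique reads. How a read that matches several genes was handled is not described further in the sources used here. Of 97 genes with a GENCODE transcript, 60 shared no 150-base window with another gene and 37 shared some. Of the 97, 7 shared at least 50% of their windows, including Zscan4f (86.2%) and Zscan4c (61.0%). A window counted as shared only where all 150 bases matched an annotated transcript of another gene. Sharing no window therefore does not show that a gene's reads were unique to it. Transcripts of Zscan4c and Zscan4f were 99.6% identical over 1806 aligned bases, Trim43a and Trim43b 98.2% over 1971, and Xlr4b and Xlr4c 99.1% over 975. Other related pairs were less alike, at 94.4% for Tcstv1 and Tcstv3, 78.9% for Tdpoz3 and Tdpoz4, 71.3% for Bhmt and Bhmt2 and 64.7% for Pramel6 and Pramel7. Of 43 clustered genes with a transcript, 18 shared no window, among them 5 of the 7 in the Tcstv cluster on chromosome 13. Zfp352, Dazl, Sycp1, Dmgdh and Cdx1 shared 0 windows with another gene. Reads covered a median of 94.4% to 95.6% of gene length in the iPSC lines and 66.6% in ESC.

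None of the 100 genes passed the test between palmitoylcarnitine lines and control lines. The rule did not separate PC from control lines, but it ranked by the lowest of the 4. A gene off in any line could not be chosen. The test therefore covers only differences in level of genes that were on in all 4 lines. edgeR called 0 of the 100 genes between PC iPSC and control iPSC, where it called 0% of the 16435 genes tested, with 2 of the 100 and 385 of all genes at an unadjusted p under 0.05. DESeq2 called 0 of the 100 and 0 of all genes as well, with 3 of the 100 and 248 of 16435 genes at an unadjusted p under 0.05. The 2 genes were Accsl (log2 difference -0.71, SE 0.23) and Mcf2 (log2 difference -0.39, SE 0.15), both with an edgeR adjusted p of 0.963. Of the 100 genes, 68 had a positive log2 difference with a median of 0.15, against a median of 0 and 8147 positive of 16435. Each group has 2 lines, and where control iPSC 7 was left out, so that control iPSC 3 was the only control line, 309 genes were called, 3 of them among the 100 and all higher. Leaving out PC iPSC 13 or control iPSC 3 turned the median of the 100 genes to -0.21 or -0.16.

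The 4 lines differed in how strongly they expressed the 100 genes, across the treatment groups. The highest of the 4 lines exceeded the lowest by a median factor of 2.13 over the 100 genes, against 1.35 over 14875 genes with at least 40 iPSC reads. These gene sets were not matched for expression level, and the part of level in the gap was not tested. PC iPSC 13 was above the mean of the 4 lines for 78 of the 100 genes and control iPSC 7 for 81, whereas PC iPSC 5 was for 30 and control iPSC 3 for 17. The medians from that mean were -0.17 in PC iPSC 5, 0.29 in PC iPSC 13, -0.43 in control iPSC 3 and 0.24 in control iPSC 7, on the log2(RPKM + 0.5) scale. PC iPSC 13 was the highest line for 40 of the 100 genes, against 18.1% of the 14875 genes, and control iPSC 3 was the lowest for 58, against 29.6%. Among the 19 two-cell-like genes, control iPSC 3 was the lowest for 12 and PC iPSC 5 for 7, so the lowest value always lay in 1 of these 2 lines. PC iPSC 5 was nevertheless the highest line for 3 of the 19, Pramel7, Pramel6 and Tmem92. PC iPSC 13 was the highest for 9 and control iPSC 7 for 7.

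**Figure D5:**
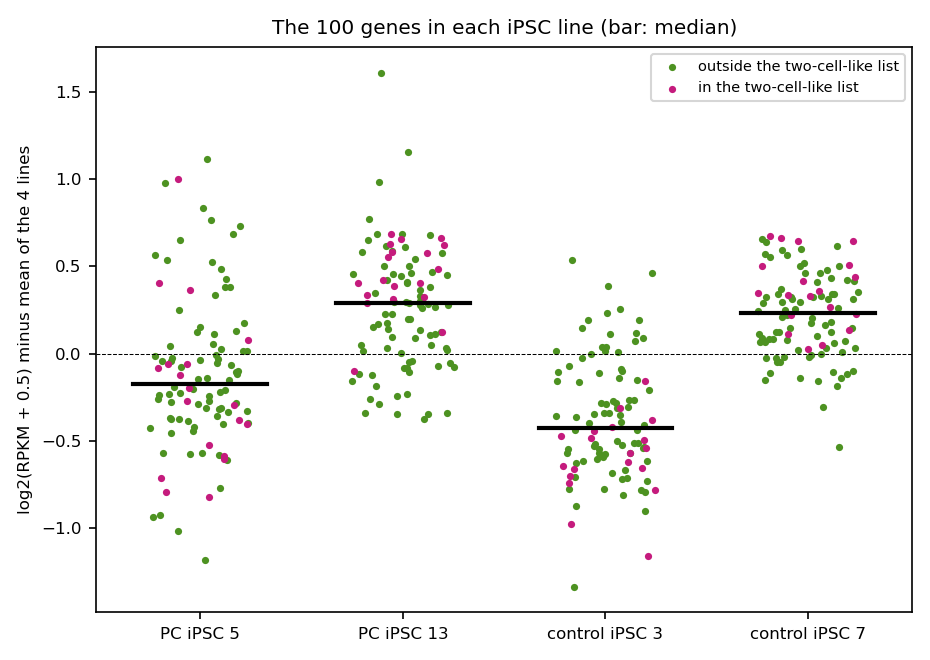
Deviation of each of the 100 genes from its mean over the 4 iPSC lines (y axis, log2(RPKM + 0.5)) in each line (x axis), with two-cell-like genes in pink, the others in green and the median of all 100 as a bar. The bars stand at -0.17, 0.29, -0.43 and 0.24 from left to right, and the pink points of PC iPSC 13 lie mostly above 0.

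Tested 1 line against the other 3, no single gene of the 100 passed the edgeR threshold in any line. Ranking by the lowest of the 4 lines limits these tests as well, since no gene off in a line could be chosen. Control iPSC 3 differed from the others in 1.19% of all genes, 0.0183% higher and 1.17% lower, and in 0 of the 100. At an unadjusted p under 0.05 were 28 of the 100, against 1486 of 16435 genes. The median log2 difference of the 100 was -0.72 in that line, against -0.01 over all genes. Of the 100, 16 were positive, against 7896 of all genes. Trim43a had the lowest p of the 100 in that line (log2 difference -1.50, SE 0.34, edgeR adjusted p = 0.114), at 2.15 RPKM in control iPSC 3 against 5.01, 6.80 and 6.47 in PC iPSC 5, PC iPSC 13 and control iPSC 7. DESeq2 called 3 of the 100 lower in control iPSC 3, where it called 345 of 16435 genes lower. Among the 3 were Trim43a (DESeq2 adjusted p = 0.0434) and Pramel6 (DESeq2 adjusted p = 0.0150). Without PC iPSC 5, control iPSC 3 differed from the remaining lines in 677 genes, 3.74% of all being lower and 0.41% higher, with 32 of the 100 lower. Without PC iPSC 13 or without control iPSC 7, the median log2 difference of the 100 in control iPSC 3 was -0.60 or -0.64. PC iPSC 5 was called in 0% of all genes and in 0 of the 100, with a median of -0.37 against -0.01 over all genes. Cdx1 (log2 difference -1.10, SE 0.14) and Htr5a (-2.13, SE 0.29) were low in that line, both with an edgeR adjusted p of 0.101, and Dazl was high (1.23, SE 0.24, adjusted p = 0.127). By DESeq2, which called 429 of 16435 genes in PC iPSC 5, these 3 passed. Their DESeq2 adjusted p was 3.3e-05 for Cdx1, 5.9e-06 for Htr5a and 5.6e-04 for Dazl. Without control iPSC 3, PC iPSC 5 differed in 31 of the 100 genes, 4 higher and 27 lower, where 4.91% of all genes were higher and 3.5% lower. PC iPSC 13 and control iPSC 7 were called in 0% of all genes and 0 of the 100. Their medians were 0.40 and 0.31 over the 100, against -0.004 and 0.006 over all genes. For PC iPSC 13, 9 of the 100 had an unadjusted p under 0.05, against 297 of 16435 genes. For control iPSC 7 it was 1 of the 100, against 128 of 16435 genes.

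Genes along chromosome 11 stood at a median log2 difference of 0.43 in PC iPSC 5 from the mean of the other 3 lines, and at 0.26 in ESC from the mean of the 4 lines, where other genes in ESC stood at -0.09. Of the 100 genes, 6 lie there, among them Calcoco2, Hormad2 and Tmem92, and the part of that shift in their values was not tested. The libraries were also compared for markers of other cells. The summed level of 16 fibroblast markers was 2146 RPKM in PC iPSC 5, 1836 in PC iPSC 13, 1242 in control iPSC 3 and 1984 in control iPSC 7, against 849 in ESC and 9715 in MEF. By edgeR, 8 of the 16 were higher in iPSC than in ESC, where 4.71% of all genes were higher. The 100 genes summed to 7.70 RPKM in MEF, with none above 0.950, where the rule had kept only genes under 1. The 12 macrophage markers summed to 32.6 to 48.5 RPKM in the iPSC lines, against 87.2 in ESC, and the 13 trophoblast markers to 67.02 to 137, against 176 in ESC. The MEF library held 158 RPKM of Pou5f1 and 88.2 of Sox2, factors of pluripotent cells, but 0.048 of Nanog and no read of Zfp42, and the source of these reads was not tested.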

How the data were processed

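RNA was measured in 2 lines of PC iPSC, 2 of control iPSC, and a single library each of ESC and MEF, with groups taken from the sample labels. The authors deposited whole-number counts of unique reads per gene, per the file headers, and RPKM values made from them by gene length and library total. Another deposited column, here called coverage, gives the share of gene length with reads. The submitters' processing notes name CASAVA 1.8.2 and the build mm10. Recomputing RPKM from counts gave the deposited values, within a relative tolerance of 1e-06, for all 100 genes and all but 93 of the 19330. With the aligner, counter, annotation and strand setting not given in the sources used here, antisense overlaps cannot be told apart.

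The tests on counts used edgeR 4.0.16, run in R 4.3.3 (quasi-likelihood, TMM scaling, default expression filter, Benjamini-Hochberg adjustment over 16435 genes, threshold 0.05), after trials on simulated data. The 4 group means over 6 libraries left 2 residual degrees of freedom. Each line was also set against the other 3. DESeq2 1.42.0, other size factors, no filter, leaving out lines, leaving out chromosome 11, and the 4 iPSC libraries alone were alternatives. No label places the lines in separate animals or cultures, and the p-values therefore cover only the spread among these libraries. Named genes were the first 25 by rank, the most abundant, those in a gene list or a cluster of neighbours, and those at the limit of the list. Single tests were named for those with the lowest p in a comparison and a few others chosen after their values were seen. The 100 genes, the gene lists and the tests were chosen with earlier results of these data known. The lists came to 9. Between iPSC and ESC, 4.71% of all genes were higher in iPSC and 5.71% lower. The endothelial, urothelial and pluripotency lists, with 7, 13 and 18 genes tested, had 0, 1 and 3 higher and 0, 2 and 2 lower. The immune cell PI3 kinase list, with 23 tested, had 2 higher, Ptpn22 and Pik3r6, and 3 lower. Ptpn22 and Pik3r6 had been named as markers of the pattern beforehand, so their own calls are not a test. The trophoblast list had 1 higher and 1 lower of 12 tested, and the macrophage list 0 higher and 2 lower of 12. Floors are 3 reads and cover counting error only. Promoters are from RefSeq and transcripts from GENCODE M21.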

Additional observations from a re-analysis of the deposited data

How the results depend on the processing

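The list depended most on the fibroblast limit and the rank offset. With no MEF limit 60 of the 100 genes were kept, with an offset of 0.1 it was 72, and leaving out a line kept 84 to 97. PC iPSC against control iPSC gave 0 genes with each alternative except leaving out lines (0 to 309), where 309 came without control iPSC 7. The median of the 100 genes in that comparison ran from -0.21 to 0.64 when lines were left out. iPSC against ESC gave 1781 to 2873 genes when lines were left out, the highest without control iPSC 3. PC iPSC 5 against the other 3 lines gave 429 genes by DESeq2 and 0 to 1378 when lines were left out. PC iPSC 13 gave 8 by DESeq2 and 0 to 2. Control iPSC 3 gave 355 by DESeq2 and 309 to 677, and control iPSC 7 gave 3 by DESeq2. The cause of these shifts was not tested. Of single genes, the log2 difference between PC iPSC and control iPSC ran from -0.06 (without PC iPSC 5) to 1.21 for Dazl and from -0.10 to 0.01 (without control iPSC 3) for Rhox5, so both changed sign. Obox3 missed the threshold between iPSC and ESC without PC iPSC 13 (adjusted p = 0.0539), as did Piwil2 (adjusted p = 0.0559). No paired analysis was possible because PC and control lines share no replicate number. With 1 ESC library, the spread between ESC lines is unknown.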
